A study of Drosophila melanogaster with 4 samples.

Results

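The UDP-glycosyltransferase (Ugt) genes of Drosophila melanogaster were examined in the heads of D50 male flies. Rows of the count table were taken by their symbol, Ugt followed by digits, which gave 17 of 13926 genes. The table uses older symbols for the rest of the family, so that a further 18 genes whose current symbol begins with Ugt stood under a CG number or under the symbol Dot. These 18 were identified through their synonyms and are described beside the 17, which makes a family of 35. A row named Ugt without digits belongs to Uggt, a glucosyltransferase for unfolded glycoproteins, and was not counted as a member. Gene symbols are given as in the table, with the current symbol in brackets.

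The series compared NelfA*/+ flies, which were heterozygous for the P-element insertion KG09483 in Nelf-A, with their control siblings (+/+) at an age of 50 days. Nelf-A encodes a subunit of the negative elongation factor, which holds RNA polymerase II close to the promoter. Each genotype had 2 libraries of polyadenylated RNA, each from 20 pooled heads of male flies, and both genotypes came from a line backcrossed repeatedly to white mutant flies. The insertion is present in all cells, in 1 line only, and the pools hide differences between flies. Nelf-A lies on 3R, between 21223704 and 21229512, and differences in sequence linked to the insertion were not tested.

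Ugt enzymes transfer the sugar of a UDP-sugar, in insects mainly UDP-glucose, onto small lipophilic molecules, which makes them water soluble and ready for export. They work in the last steps of detoxification, after cytochrome P450s have added a reactive group, and they also conjugate pigments, hormones and odorants. In insect heads several are expressed in the antenna, where they are thought to help clear odorants.

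Counts on genes came to between 42985746 and 45172099 per library. Nelf-A was counted 2398 and 2294 times in NelfA*/+ heads, against 3588 and 3505 times in control sibling heads, with a log2 fold change of -0.54 ± 0.07 (SE; edgeR quasi-likelihood test, adjusted p = 0.0411), so both labels matched the expression of the targeted gene. Here and below the pair of values for a genotype gives replicate 1 and then replicate 2. The study calls its libraries biological replicates, and the p-values measure the spread between these pools. In NelfA*/+ replicate 1, and less in replicate 2, many digestive enzyme genes of the midgut stood far above the control siblings. The summed normalized count of 28 of the 30 midgut markers was 43207 and 4569 in NelfA*/+ heads, against 684.0 and 719.1 in control sibling heads. The other 2 markers, the amylase genes Amy-p and Amy-d, went the opposite way, with a summed normalized count of 25054 and 26711 in NelfA*/+ heads, against 45095 and 37689 in control sibling heads, and Amy-d was called lower (log2 fold change -0.99, edgeR adjusted p = 0.0362). Normalized counts are counts divided by the library size after TMM scaling, relative to the mean library.

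The members spanned a wide range of levels. Per exonic length, Ugt35b (Ugt35B1, FBgn0026314, 3R, 11168503 to 11170246), known from the third antennal segment, had the highest level, 146.3 and 148.9 RPKM (reads per exonic kilobase, scaled to library size) in NelfA*/+ heads, against 138.0 and 126.7 RPKM in control sibling heads. It made up 29.7% and 32.9% of the summed RPKM of the family in NelfA*/+ heads, against 25.0% and 24.2% in control sibling heads. The next levels belonged to CG4302 (Ugt49B1) with 60.3 and 48.6 RPKM in NelfA*/+ heads, against 71.1 and 67.0 RPKM in control sibling heads. Below them lay a group of close levels, whose order changed with the genotype. Among these, Ugt86Dd (Ugt35C1) had 37.9 and 30.5 RPKM in NelfA*/+ heads, against 66.6 and 61.4 RPKM in control sibling heads. CG15661 (Ugt49C1) had 43.4 and 42.7 RPKM in NelfA*/+ heads, against 56.0 and 53.4 RPKM in control sibling heads. Ugt86Da (Ugt302C1) had 45.5 and 45.1 RPKM in NelfA*/+ heads, against 46.1 and 47.2 RPKM in control sibling heads. CG17322 (Ugt36E1) had 34.8 and 34.7 RPKM in NelfA*/+ heads, against 49.5 and 51.1 RPKM in control sibling heads. In control sibling heads Ugt86Dd thus stood above CG15661, CG17322 and Ugt86Da in both libraries, while in NelfA*/+ heads it lay below CG15661 and Ugt86Da in both. The members above 1 RPKM numbered 24 and 17 in NelfA*/+ libraries, against 20 and 20 in control sibling libraries.

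**Figure D1:**
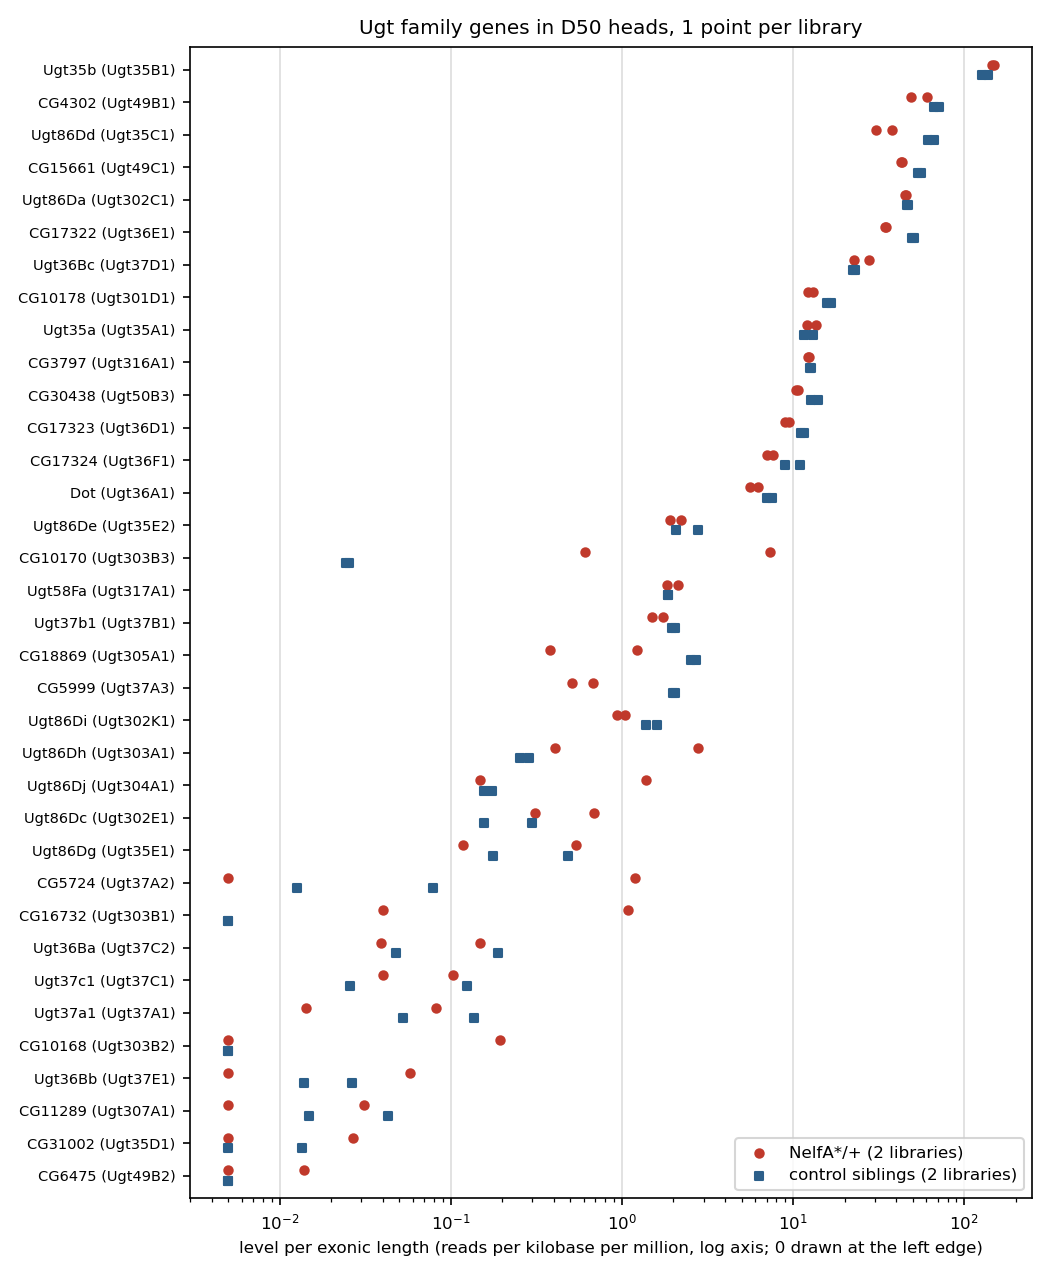
Level of each of the 35 Ugt genes per exonic length (RPKM, logarithmic axis, a value of 0 drawn at the left edge), with 1 point for each NelfA*/+ library (circles) and each control sibling library (squares). Most of the abundant genes at the top have close replicates, less so for some, such as CG4302 and Ugt86Dd in NelfA*/+ heads. Their NelfA*/+ points lie mostly left of the control sibling points, though not for the top gene, Ugt35b. CG10170, Ugt86Dh, Ugt86Dj, CG5724 and CG16732 show 1 NelfA*/+ point far to the right of the other.

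To ask which members differed between the genotypes, the counts of all genes were compared with edgeR's quasi-likelihood test. Enough counts for the test were found for 14 of the 17 genes taken by symbol and for 26 of the 35 family members. A member could pass this filter through 1 genotype alone, so the counts that follow describe the members tested and not the whole family. At an adjusted p below 0.05, 3 of the 26 fell in NelfA*/+ heads and 0 rose, while among all 9609 genes tested 1.23% fell and 0.645% rose. Only 1 of the 3, Ugt86Dd, was among the 17 genes taken by symbol. With an unadjusted p below 0.05, 12 members were lower and 2 were higher in NelfA*/+ heads, and 20.3% of all genes passed this limit in either direction. DESeq2 called 7 members lower and 2 higher, CG10170 and Ugt86Dh, in NelfA*/+ heads, beside 4.82% and 4.16% of the genes it gave an adjusted p.

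CG17322 (Ugt36E1, FBgn0027070, 2L, 18826770 to 18829059) fell to 69.1% of its level in control sibling heads. This enzyme is known from olfactory neurons and has been tied to the sensing of pheromones. It was counted 2965 and 2811 times in NelfA*/+ heads, against 4184 and 4507 times in control sibling heads. The genotypes were clearly apart, and the NelfA*/+ libraries were nearly equal once scaled, with normalized counts of 2945 ± 8.38 in NelfA*/+ heads and 4262 ± 92.8 in control sibling heads (SD, n = 2 each). The log2 fold change was -0.53 ± 0.06 (SE; edgeR adjusted p = 0.0356). Fewer cells that express a gene and less RNA per cell cannot be told apart in such pools of whole heads.

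Ugt86Dd (Ugt35C1, FBgn0040256, 3R, 11126597 to 11128328), an enzyme linked to resistance of larvae to nicotine, fell to 53.4% of its level in control sibling heads. It was counted 2832 and 2168 times in NelfA*/+ heads, against 4940 and 4763 times in control sibling heads. Both NelfA*/+ libraries lay far below both control sibling libraries, though among the members with a mean normalized count above 500 its NelfA*/+ libraries differed most from each other. Its normalized count averaged 2543 ± 390.1 in NelfA*/+ heads and 4764 ± 269.5 in control sibling heads (SD, n = 2 each), a log2 fold change of -0.91 ± 0.12 (SE; edgeR adjusted p = 0.0444).

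CG5999 (Ugt37A3, FBgn0038083, 3R, 12741958 to 12743680) fell to 29.2% of its level in control sibling heads, at a low level of expression. It was counted 38 and 48 times in NelfA*/+ heads, against 148 and 159 times in control sibling heads. The groups did not overlap, and the gap was many times the spread within either genotype, with normalized counts of 44.0 ± 8.74 in NelfA*/+ heads and 150.5 ± 2.99 in control sibling heads (SD, n = 2 each). The log2 fold change was -1.77 ± 0.23 (SE; edgeR adjusted p = 0.0420). The calls for CG17322, Ugt86Dd and CG5999 were lost when either control sibling library was left out, with adjusted p-values between 0.175 and 0.272, and when low counts were not filtered, with 0.0502, 0.0698 and 0.0684, while their log2 fold changes stayed between -0.56 and -0.51, between -1.07 and -0.76 and between -1.99 and -1.58 when any 1 library was left out.

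A wider set of members was lower in NelfA*/+ heads without passing the edgeR threshold. Of the 26 members tested, 15 had both NelfA*/+ libraries below both control sibling libraries and 4 had both above, while 26.0% and 26.1% of all genes tested were apart in these directions. The median log2 fold change of the 26 was -0.29, beside 0.01 over all genes tested. It was -0.06 over all 35 members when low counts were not filtered, -0.03 over the 30 members tested without NelfA*/+ replicate 2 and -0.06 over the 30 tested without control sibling replicate 1. Among the 14 members with a mean normalized count above 500, where replicates differed by a median of 0.08 on the log2 scale in either genotype, 11 were lower without overlap, 1 was higher without overlap and 2 overlapped. Their median log2 fold change was -0.32, beside 0.01 for the 6595 genes above the same level, of which 26.5% were lower without overlap. The 14 tested genes taken by symbol had a median of 0.03, with 4 lower and 3 higher without overlap, and the 12 tested genes under other symbols had a median of -0.34, with 11 lower and 1 higher without overlap. These counts are descriptions of the members and carry no test.

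**Figure D2:**
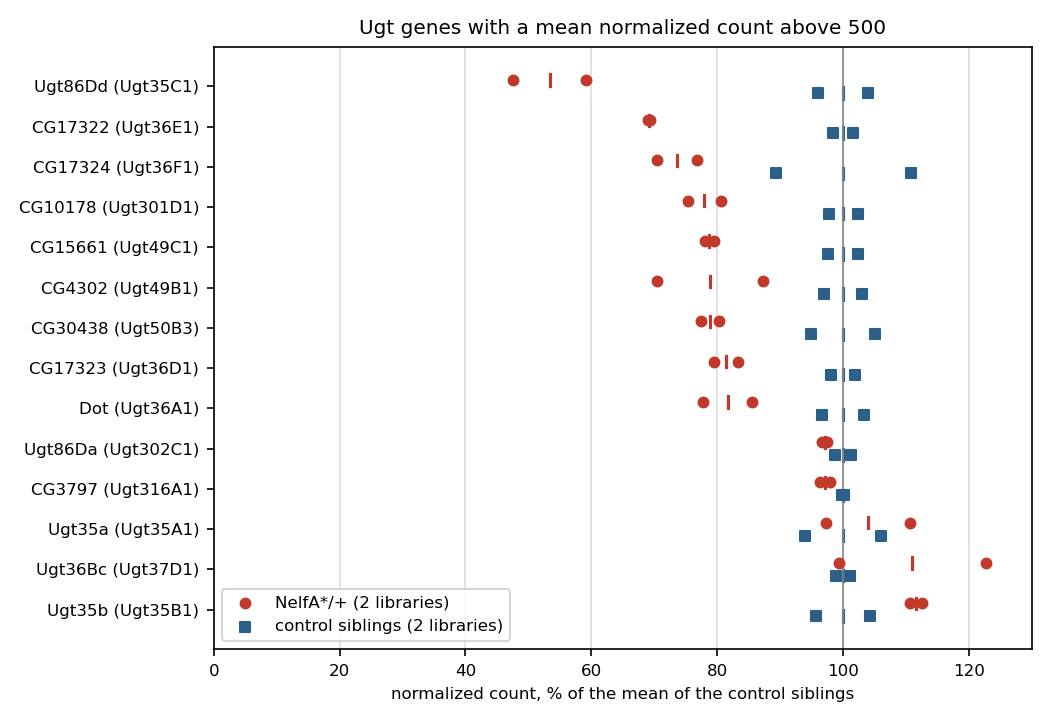
Normalized count of the 14 Ugt genes above a mean of 500, as a percentage of the mean of the control siblings, with 1 point for each NelfA*/+ library (circles) and each control sibling library (squares) and a short line at each genotype's mean. NelfA*/+ points lie left of the control sibling points for 11 genes, from Ugt86Dd at 53.4% to CG3797 at 97.1% of the control mean, and right of them for Ugt35b at 111.6%.

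While 26.0% of all genes tested had both NelfA*/+ libraries below both control sibling libraries, all 4 members of family 36 did. Besides CG17322 these were its neighbours CG17323 (Ugt36D1) and CG17324 (Ugt36F1), which lie in a row on 2L between 18819344 and 18829059, and Dot (Ugt36A1), a gene whose enhancer marks the lymph gland and pericardial cells. CG17324 was counted 577 and 503 times in NelfA*/+ heads, against 825 and 695 times in control sibling heads, with a log2 fold change of -0.44 ± 0.13 (SE; edgeR adjusted p = 0.163). CG17323 was counted 961 and 873 times in NelfA*/+ heads, against 1123 and 1218 times in control sibling heads, with a log2 fold change of -0.30 ± 0.07 (SE; edgeR adjusted p = 0.112). For CG17324 the gap between the control sibling libraries was close to the gap between the genotypes, while for CG17323 the replicates were tight. Dot was counted 640 and 553 times in NelfA*/+ heads, against 767 and 749 times in control sibling heads, with a log2 fold change of -0.29 ± 0.09 (SE; edgeR adjusted p = 0.175), and shares 17.4% of its exonic bases with CG15418. The 3 neighbours on 2L are close relatives, and reads that fit more than 1 of them equally well were not counted.

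Both tested genes of family 49 were lower in NelfA*/+ heads without overlap, as were 26.0% of all genes tested. Neither passed the edgeR threshold. CG15661 and CG4302 stand next to each other on 2R between 21212880 and 21217779. CG15661 was counted 3692 and 3457 times in NelfA*/+ heads, against 4724 and 4705 times in control sibling heads, which gave a log2 fold change of -0.34 ± 0.06 (SE; edgeR adjusted p = 0.0739, DESeq2 adjusted p = 0.0034). CG4302 was counted 4733 and 3631 times in NelfA*/+ heads, against 5540 and 5451 times in control sibling heads, which gave a log2 fold change of -0.34 ± 0.12 (SE; edgeR adjusted p = 0.209). The mean levels of CG15661 and CG4302 were 78.8% of the control sibling level alike, but NelfA*/+ replicate 2 was much lower than replicate 1 for CG4302 only. The last gene of the family, CG6475 (Ugt49B2, 3R, 21397781 to 21399742), had 0 and 1 counts in NelfA*/+ heads, against 0 and 0 in control sibling heads.

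Outside these families and the run of genes on 3R described further on, 3 more members were lower with an unadjusted p below 0.05. CG10178 (Ugt301D1, 2L) was counted 1088 and 1107 times in NelfA*/+ heads, against 1466 and 1463 times in control sibling heads, with a log2 fold change of -0.36 ± 0.07 (SE; edgeR adjusted p = 0.0912, DESeq2 adjusted p = 0.0331). CG30438 (Ugt50B3, 2R) was counted 1537 and 1519 times in NelfA*/+ heads, against 2072 and 1953 times in control sibling heads, with a log2 fold change of -0.34 ± 0.08 (SE; edgeR adjusted p = 0.117, DESeq2 adjusted p = 0.0499). Replicates of these genes were close in both genotypes and the gap between the genotypes was wider than the spread within either. CG18869 (Ugt305A1, 3L, 4059770 to 4061923) was counted 108 and 32 times in NelfA*/+ heads, against 223 and 250 times in control sibling heads. All its NelfA*/+ values were lower, at 30.4% of the control sibling mean, but the 2 NelfA*/+ libraries themselves were far apart. Its log2 fold change was -1.71 ± 0.53 (SE; edgeR adjusted p = 0.176). It passed the threshold in DESeq2 (adjusted p = 0.0207). With all libraries it did not pass with limma-voom (adjusted p = 0.126) or in the other alternatives run. Its log2 fold change was -2.79 without NelfA*/+ replicate 1 and -1.11 without NelfA*/+ replicate 2. It was -1.77 without control sibling replicate 1 and -1.66 without control sibling replicate 2.

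Ugt35b had slightly higher values in NelfA*/+ heads. It was counted 10948 and 10605 times in NelfA*/+ heads, against 10243 and 9826 times in control sibling heads, with normalized counts of 10991 ± 135.9 in NelfA*/+ heads and 9853 ± 592.8 in control sibling heads (SD, n = 2 each). The libraries did not overlap, and the log2 fold change of 0.16 ± 0.08 (SE; edgeR adjusted p = 0.345) did not pass the test. Antennal markers, of which 7 of 9 were detected in every library and Obp69a and Obp59a were at 0, had a summed normalized count of 103566 and 102113 in NelfA*/+ heads, against 94342 and 88121 in control sibling heads. All 7 had a positive log2 fold change, and edgeR called 0 of them, with 4 at an unadjusted p below 0.05, while DESeq2 called 3 higher. Over all genes edgeR called 0.645% higher and DESeq2 4.16%, and 20.3% had an unadjusted edgeR p below 0.05 in either direction. The part of the antennal markers in the level of Ugt35b was not tested.

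The family total rests largely on its most abundant genes. The summed normalized count of the 35 genes was 41059 and 37904 in NelfA*/+ heads, against 46097 and 43889 in control sibling heads. Both NelfA*/+ totals were below both control sibling totals, with a mean of 39481 ± 2231 in NelfA*/+ heads and 44993 ± 1561 in control sibling heads (SD, n = 2 each), or 87.7%. An exact permutation test of the total gave p = 0.333, the smallest value it can give with 2 libraries a genotype, so it could not decide. Without Ugt35b the total was 81.1% of that in control sibling heads. For the 17 genes taken by symbol it was 96.1%, and for the other 18 it was 79.4%.

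On 3R, Ugt86Dd lies just outside a run of 9 Ugt genes between 11151026 and 11177910, and the genes of this run had log2 fold changes of both signs. In chromosomal order their log2 fold changes were -0.58 for Ugt86Di, 1.13 for Ugt86Dc, -0.04 for Ugt86Da, -0.00 for Ugt86Dg, -0.23 for Ugt86De, 0.16 for Ugt35b, 0.06 for Ugt35a, 2.20 for Ugt86Dj and 2.55 for Ugt86Dh, and edgeR called 0 of the 9. Of these, 1 was higher and 1 was lower with an unadjusted edgeR p below 0.05, and DESeq2 called 1 higher, Ugt86Dh. Over all genes 20.3% passed the unadjusted limit in either direction, and DESeq2 called 4.16% higher. Ugt86Di (Ugt302K1) was counted 120 and 102 times in NelfA*/+ heads, against 181 and 163 times in control sibling heads, so that it was lower without overlap (edgeR adjusted p = 0.175). Ugt86Da was counted 4058 and 3831 times in NelfA*/+ heads, against 4082 and 4369 times in control sibling heads, and its mean was 97.0% of the control sibling mean. Ugt86Dc (Ugt302E1) was counted 49 and 21 times in NelfA*/+ heads, against 11 and 22 times in control sibling heads, and its libraries were apart only after scaling.

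**Figure D3:**
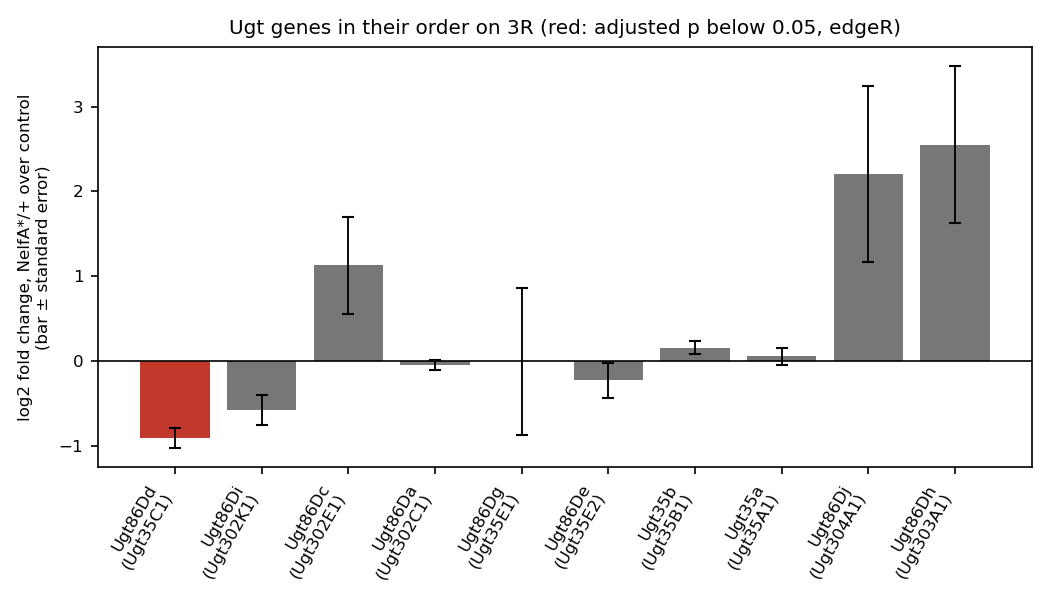
Log2 fold change of NelfA*/+ over control siblings (bars) with its standard error (lines) for Ugt86Dd and the 9 Ugt genes beside it on 3R, in chromosomal order and not to scale. Only Ugt86Dd, at -0.91, passed the edgeR threshold, and the tall bars of Ugt86Dj and Ugt86Dh have standard errors of 1.04 and 0.92.

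A set of 6 members stood far higher in NelfA*/+ replicate 1 than in the other libraries, a set that was chosen after the values were seen and has no test as a set. It holds the whole of family 303, which is CG10170 (Ugt303B3), CG16732 (Ugt303B1) and CG10168 (Ugt303B2), 3 genes in a row on 3R between 23532945 and 23538908, and Ugt86Dh (Ugt303A1) in the run described above. The others are Ugt86Dj (Ugt304A1), the neighbour of Ugt86Dh, and CG5724 (Ugt37A2), the neighbour of CG5999.

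CG10170 was counted 576 and 46 times in NelfA*/+ heads, against 2 and 2 times in control sibling heads. Both NelfA*/+ libraries were thus well above the controls, but replicate 1 was 11.9 times replicate 2 after scaling. The ratio of the summed counts was 162, with a 95% interval from 62.8 to 595.1 that covers counting error only, and edgeR gave an adjusted p of 0.106 and DESeq2 one of 0.000359. CG16732 was counted 85 and 3 times in NelfA*/+ heads, against 0 and 0 times in control sibling heads. With 3 counts allowed over the control libraries together, its pooled NelfA*/+ counts were at least 30.5-fold higher. Nearly all of them came from replicate 1, and replicate 2 had no more counts than this floor. CG10168 was counted 16 and 0 times in NelfA*/+ heads, against 0 and 0 times in control sibling heads, or at least 5.54-fold higher by the same floor, all of it from replicate 1. CG5724 was counted 91 and 0 times in NelfA*/+ heads, against 6 and 1 times in control sibling heads, so that replicate 2 was below both controls. Its ratio of summed counts was 13.5, with a 95% counting interval from 6.30 to 34.6.

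Ugt86Dh was counted 253 and 35 times in NelfA*/+ heads, against 23 and 27 times in control sibling heads. Its log2 fold change of 2.55 ± 0.92 (SE; edgeR adjusted p = 0.224) dropped to 0.58 without NelfA*/+ replicate 1, and was 3.35 without NelfA*/+ replicate 2. Ugt86Dj was counted 107 and 11 times in NelfA*/+ heads, against 12 and 14 times in control sibling heads, with a log2 fold change of 2.20 ± 1.04 (SE; edgeR adjusted p = 0.323) that turned to -0.15 without NelfA*/+ replicate 1. For Ugt86Dj the high mean thus came from 1 library, and its replicate 2 was below both controls.

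Some genes of other tissues stood high in the same library. Uro, the urate oxidase gene that marks the Malpighian tubule, was counted 399 and 17 times in NelfA*/+ heads, against 1 and 0 times in control sibling heads, and replicate 1 was 22.3 times replicate 2 after scaling. All 5 tubule markers were detected in both NelfA*/+ libraries, against 5 and 4 in control sibling libraries, with summed normalized counts of 3063 and 2713 in NelfA*/+ heads, against 2374 and 2140 in control sibling heads. Without Uro the sums of the other 4 were 2666 and 2695 in NelfA*/+ heads, against 2373 and 2140 in control sibling heads. The excess of replicate 1 in the summed count thus lay in Uro, but single markers differed. Normalized counts in NelfA*/+ heads were higher in replicate 1 for Irk3 (1128 and 876.1) and CapaR (107.5 and 81.5). They were lower in replicate 1 for Lkr (208.0 and 259.3) and Dh44-R2 (1223 and 1478). Of the 30 midgut markers, 27 and 21 were detected in NelfA*/+ libraries, against 17 and 14 in control sibling libraries, and gammaTry and Jon65Aii were at 0 in all 4. The 14 midgut markers with at least 100 counts in NelfA*/+ replicate 1, the amylase genes left out, were all higher in replicate 1 than in replicate 2, by between 2.02 and 662 times. Amy-p and Amy-d had a replicate 1 to replicate 2 ratio of 0.856 and 1.06. The part of tubule or gut tissue in the levels of these 6 Ugt genes was not tested. The 6 genes together had summed normalized counts of 1123 and 99.3 in NelfA*/+ heads, against 43.1 and 42.2 in control sibling heads, a small share of the family total.

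**Figure D4:**
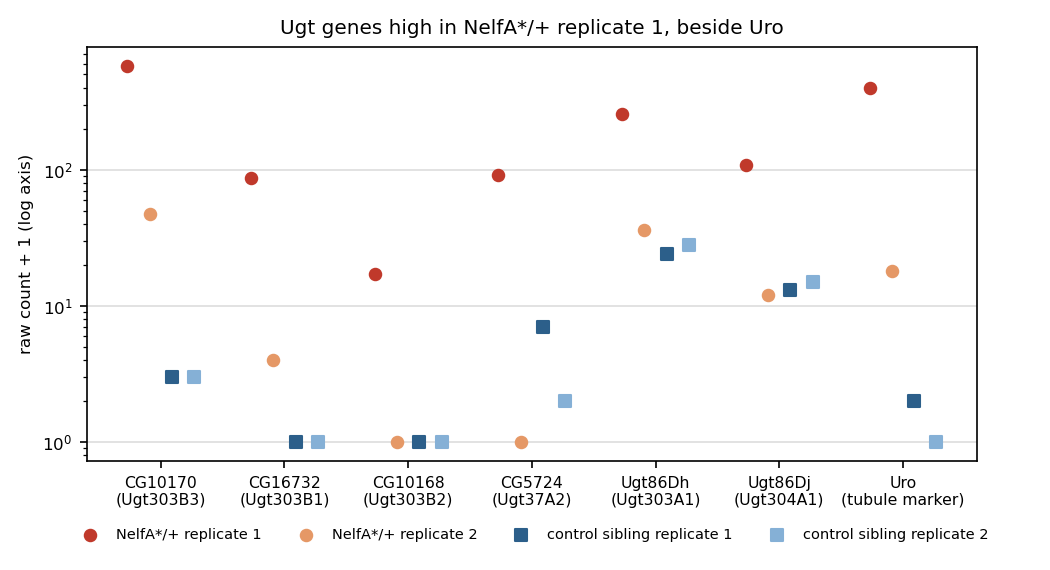
Raw count plus 1 (logarithmic axis) of the 6 Ugt genes that stood far higher in NelfA*/+ replicate 1, and of the tubule marker Uro, with 1 point for each of the 4 libraries. NelfA*/+ replicate 1 is the highest point for every gene, for example 576 counts of CG10170 and 399 of Uro, while NelfA*/+ replicate 2 lies above both controls for CG10170, CG16732, Ugt86Dh and Uro only.

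The remaining members tested did not pass the threshold. Ugt35a (Ugt35A1), the close relative and neighbour of Ugt35b, was counted 1086 and 910 times in NelfA*/+ heads, against 1033 and 957 times in control sibling heads. Ugt36Bc (Ugt37D1) was counted 2445 and 1884 times in NelfA*/+ heads, against 2000 and 2043 times in control sibling heads, and overlapped because of replicate 2. CG3797 (Ugt316A1) was counted 1748 and 1638 times in NelfA*/+ heads, against 1770 and 1853 times in control sibling heads, at 97.1% of the control sibling mean. These 3 and Ugt58Fa, Ugt86De, Ugt37b1, Ugt36Ba and Ugt86Dg had log2 fold changes between -0.31 and 0.15 and edgeR adjusted p-values between 0.392 and 0.9995.

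The 9 members outside the test did not have enough counts in enough libraries for it, and CG5724 and CG16732 were high in NelfA*/+ replicate 1 only. Besides CG16732, CG10168, CG5724 and CG6475, given above, these were 5 genes with at most 10 counts in any library. Ugt37a1 had 6 and 1 counts in NelfA*/+ heads, against 10 and 4 in control sibling heads. Ugt37c1 had 8 and 3 counts in NelfA*/+ heads, against 2 and 10 in control sibling heads. Differences of this size were not detectable at this depth. Ugt36Bb (Ugt37E1) had 0 and 4 counts in NelfA*/+ heads, against 1 and 2 in control sibling heads. CG11289 (Ugt307A1) had 0 and 2 counts in NelfA*/+ heads, against 1 and 3 in control sibling heads. CG31002 (Ugt35D1) had 2 and 0 counts in NelfA*/+ heads, against 1 and 0 in control sibling heads.

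For the sugar donor, the transcripts of 9 genes of UDP-sugar synthesis were read, and the level of UDP-sugars was not measured. Of these genes, Galt, Hex-C and frc were at 0 in all libraries and 6 were tested. The eye marker Arr2, the neuron marker Syx1A and the glia marker moody were also at 0 in all libraries of these heads. A count of 0 in all libraries, here and in the other lists, thus may not show that a gene is silent. UGP, which makes UDP-glucose from glucose 1-phosphate, fell in NelfA*/+ heads. It was counted 9986 and 9159 times in NelfA*/+ heads, against 14695 and 14420 times in control sibling heads, with a log2 fold change of -0.55 ± 0.08 (SE; edgeR adjusted p = 0.0486). Galactokinase, Galk, was counted 7680 and 6738 times in NelfA*/+ heads, against 9940 and 10209 times in control sibling heads (log2 fold change -0.43, edgeR adjusted p = 0.0712). UGP, Galk and Hex-A had both NelfA*/+ libraries below both control sibling libraries, as had 26.0% of all genes tested. Of the genes tested here, UGP alone passed the edgeR threshold, while edgeR called 1.23% of all genes lower. DESeq2 gave UGP an adjusted p of 7.53e-08 and Galk one of 0.000129, and it called 4.82% of all genes lower. Pgm, Hex-A and sgl, the last of which oxidizes UDP-glucose to UDP-glucuronate, had log2 fold changes of 0.08, -0.10 and 0.26 and did not pass the test.

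Other steps of detoxification were read from further gene lists. Of 84 Cyp genes, which act before the Ugt enzymes, 63 were tested, 3 fell (Cyp4d21, Cyp4e3 and Cyp6a8) and 0 rose in edgeR's test, with a median log2 fold change of -0.07. With an unadjusted edgeR p below 0.05, 19 of the Cyp genes were lower and 5 higher, and DESeq2 called 10 lower and 2 higher. Of 35 Gst genes, all tested, GstE7 rose and GstD3 fell, and their median log2 fold change was 0.06. With an unadjusted edgeR p below 0.05, 9 of the Gst genes were higher and 6 lower, and DESeq2 called 7 higher and 4 lower. Over all genes edgeR called 1.23% lower and 0.645% higher, DESeq2 4.82% and 4.16%, and 20.3% had an unadjusted edgeR p below 0.05. Among 3 tested sulfotransferases, 6 regulators such as cnc and Keap1, and 5 multidrug transporters, which had medians of -0.09, -0.00 and 0.11, edgeR and DESeq2 called 0 genes, and 1, 1 and 0 genes had an unadjusted edgeR p below 0.05. Among these, the transporter gene Mdr50 was counted 497 and 18 times in NelfA*/+ heads, against 27 and 30 times in control sibling heads, again highest in NelfA*/+ replicate 1.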

How the data were processed

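Head RNA of D50 males was sequenced in 4 libraries, 2 of NelfA*/+ flies and 2 of control siblings, assigned from the sample labels. The authors trimmed the reads (Trim Galore), aligned them to BDGP6 with STAR 2.5 and counted them with HTSeq-count, and the deposited values are raw counts per gene without normalization. The counting mode and strand setting are not given in the sources used here. Reads on more than 1 gene (7.47% to 8.00% of a library), reads aligned to several places (6.03% to 6.84%) and reads on no gene (2.91% to 3.38%) were left out by the authors' counting, so closely related Ugt genes may be undercounted. The authors' table of their own comparison holds fold changes and p-values and was not used.

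Members and gene lists were chosen with earlier results of these data known. The 35 genes were matched by symbol and by RefSeq synonyms, and positions and exonic lengths came from the Ensembl annotation of BDGP6, in a later release than the authors used. Levels in RPKM divide counts by exonic length and TMM-scaled library size. Genotypes were compared with edgeR 4.0.16 in R 4.3.3 (filterByExpr, TMM, glmQLFit, glmQLFTest, Benjamini-Hochberg over 9609 genes, threshold 0.05). Standard errors were the log2 fold change divided by the root of the F statistic. Intervals of count ratios are exact 95% intervals for counting error only. Every member is accounted for. Values in every library were given for members with an adjusted or unadjusted p below 0.05, the 5 highest per length, members outside the filter and some others that were named after their values were seen. Alternatives were DESeq2 1.42.0, limma-voom (limma 3.58.1), DESeq2 size factors, library size alone, robust dispersions, no filter or a minimum of 10 counts per library, a threshold of 0.1, a replicate block, and fits without 1 library. The fits were tried on simulated counts with the same dispersion for every gene and no outlying library. This does not show how they behave on replicates like those here. Promoter and protein sequences were not used here. The values of 1 listed gene are not reported here. Replicates differed by far more than counting error, with a chi-square per degree of freedom of 58.4 in NelfA*/+ heads and 73.6 in control sibling heads.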

Additional observations from a re-analysis of the deposited data

How the results depend on the processing

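CG17322, Ugt86Dd and CG5999 were lower under all alternatives run, and the 3 calls needed both control sibling libraries. The edgeR count of family members that fell, 3, became 7 with DESeq2, 0 without a filter on low counts, 1 with limma-voom and 5 at an adjusted p below 0.1. The count that rose, 0, became 2 with DESeq2. Of the genes taken by symbol 1 was called in the main setting, 2 with DESeq2, 0 without a filter and 0 with limma-voom. Among all genes the 180 calls became 911 with DESeq2, 82 without a filter, 359 with robust dispersions, 118 with limma-voom and 578 at an adjusted p below 0.1. The median log2 fold change of the members tested, -0.29, became -0.0626 with DESeq2 and -0.0645 without a filter, each over 35 members.

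The deviations of same-numbered libraries from the mean of their genotype had a correlation of -0.13 over 8365 genes. With 2 libraries a genotype this value cannot show whether same-numbered libraries share a batch. With the replicate number as a block 2 family members fell, 1 rose (CG10170, adjusted p = 0.00495) and 297 genes were called in all, and CG17322 missed the threshold (adjusted p = 0.0565). With the numbers crossed, a setting chosen after seeing the data, 5 family members fell, 1 rose and 797 genes were called in all.

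When 1 library was left out, the lone library of its genotype was assumed to vary like the others. Between 0 and 4 family members then fell, between 0 and 5 rose, and between 0 and 3 of those taken by symbol were called. Between 2 and 554 of all genes were called, 2 without either control sibling library, and the median lay between -0.33 and -0.0346. CG17322 was also lost without NelfA*/+ replicate 1 (adjusted p = 0.0503), and Ugt86Dd and CG5999 with limma-voom (adjusted p = 0.0532 for each). With 2 libraries a genotype, weak members such as Ugt86Dg, with a standard error of 0.86 on the log2 scale, could not be resolved.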
